A study of Mus musculus with 9 samples.

Results

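A set of 6 liver genes stood on the same side of the control in 2 mouse genotypes that both lack hepatic Mttp, and their levels in each genotype and the differences between both deleted genotypes are described here. Erich4, Igdcc4, Hoxc8, Slc16a5 and Abhd2 were higher in the Mttp-deleted livers, and Crygn was lower. The 6 genes were picked out of the 41388 in each count table because both deleted genotypes differed from the control in 1 direction, so the differences from the control are given below as values, with no test. All 6 were among the 14741 genes that passed the filter on low counts. Since Hoxc8 and Erich4 were nearly absent from the control, they passed through the genotypes in which they were high.

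All mice were male C57BL/6J and received the liver carcinogen diethylnitrosamine (DEN) intraperitoneally, at 25 mg per kg, when 14 days old. They ate standard chow, and the livers were taken at 6 months. The control carried floxed Mttp (Mttp f/f) with the gene intact. The Mttp LKO genotype, called MttpLKO below, lacked Mttp in the liver only, and the Fabp1 Mttp DKO genotype, called DKO, lacked hepatic Mttp and carried a germline deletion of Fabp1 in addition. The Cre driver is not given in the sources used here, no Fabp1 single knockout and no mouse without DEN was among the samples, and the labels do not say whether tumour tissue was included. Each library was made from oligo(dT)-selected RNA pooled from 3 mice, with 3 pools per genotype, 9 libraries and 27 mice in all. The p-values below therefore measure the spread between pools of mice. In bulk liver RNA, fewer cells of a type and less RNA per cell cannot be told apart.

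Mttp encodes the microsomal triglyceride transfer protein, which loads lipid onto apolipoprotein B so that hepatocytes can secrete very-low-density lipoprotein; livers without it store triglyceride. Fabp1 encodes the abundant cytosolic fatty acid-binding protein of hepatocytes. The 6 genes belong to no common pathway. Igdcc4, also called Nope, is a transmembrane protein of the immunoglobulin superfamily related to the netrin receptor DCC, and it is known as a surface marker of fetal liver cells and of mouse liver tumours. Hoxc8 is a homeobox transcription factor of the Hoxc cluster that patterns the trunk of the embryo. Slc16a5 encodes MCT6, a plasma membrane carrier of the monocarboxylate transporter family. Abhd2 is a serine hydrolase of the alpha/beta hydrolase fold with monoacylglycerol lipase activity, best known from sperm, where it cleaves 2-arachidonoylglycerol. Crygn encodes gamma-N crystallin, a relative of the structural proteins of the eye lens. Erich4 encodes a glutamate-rich protein whose function is little described.

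The genes lay on 5 chromosomes. In the coordinates of the deposited tables, Erich4 (ENSMUSG00000074261) spanned chr7:25614621-25615892 on the minus strand and Abhd2 (ENSMUSG00000039202) chr7:79273201-79365508 on the plus strand, 53.7 Mb apart. Igdcc4 (ENSMUSG00000032816) spanned chr9:65101486-65137940, Hoxc8 (ENSMUSG00000001657) chr15:102990607-102994111 and Slc16a5 (ENSMUSG00000045775) chr11:115462474-115474398, all on the plus strand. Crygn (ENSMUSG00000038135) spanned chr5:24751003-24758008 on the minus strand. All 6 are protein-coding. Mttp lies on chromosome 3 and Fabp1 on chromosome 6, so no gene of the set shares a chromosome with a deleted gene.

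Promoter sequence was available in the RefSeq table (GRCm38.p6) for 3 of the 6 genes, Crygn, Abhd2 and Igdcc4, and the bases upstream of every annotated start are printed to show what a gene that was lower and 2 genes that were higher carry there. Each runs 5′ to 3′ on the gene's own strand, and capitals mark matches to the motifs searched. The windows are chr5:24758009-24758098 for Crygn, chr7:79273016-79273198 for Abhd2 and chr9:65101236-65101485 for Igdcc4.
Crygn: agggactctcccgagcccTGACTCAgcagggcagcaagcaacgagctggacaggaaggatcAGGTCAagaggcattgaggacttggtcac
Abhd2: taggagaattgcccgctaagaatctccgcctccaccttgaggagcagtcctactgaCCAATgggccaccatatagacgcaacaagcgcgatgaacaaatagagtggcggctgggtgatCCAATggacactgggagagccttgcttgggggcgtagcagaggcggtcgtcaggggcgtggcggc
Igdcc4: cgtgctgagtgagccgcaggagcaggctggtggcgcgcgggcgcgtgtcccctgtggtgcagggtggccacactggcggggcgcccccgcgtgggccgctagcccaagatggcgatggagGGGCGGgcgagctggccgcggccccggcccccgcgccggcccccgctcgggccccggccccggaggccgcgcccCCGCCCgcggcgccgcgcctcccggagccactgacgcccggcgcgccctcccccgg
In the Crygn window the capitals are a match to the AP-1 motif TGANTCA and to AGGTCA, a partial nuclear receptor site. They were found in 6.75% and 14.0% of all 32851 promoters. For these and every other share given here, the 250 bases before each RefSeq start were searched. In the Abhd2 window they are a pair of CCAAT boxes, 194 and 132 bases before the RefSeq start (33.8% of promoters hold at least 1). In the Igdcc4 window they are GC boxes (GGGCGG, in 32.7% of promoters), of which the one nearer the start lies on the minus strand. The GC box was the 1 motif with a match in all 3 promoters; in Crygn and Abhd2 it lies 145 and 59 bases before the RefSeq start, downstream of the printed windows. The motifs were searched on both strands, and the others tried had no match to their letters in the 3 promoters. These were the TATA box TATAAA (12.4% of all promoters), the STAT5-type site TTCNNNGAA (7.02%) and the C/EBP palindrome TTGCGCAA (0.164%). The E-box CACGTG (6.02%) and GTTAAT, a partial HNF1 site (6.43%), had none either. The 250 bases before the RefSeq start held 39 CpG dinucleotides and 84% G and C in Igdcc4, 17 and 61.6% in Abhd2, and 14 and 62% in Crygn, against medians of 6 and 52.4% over all promoters. The Igdcc4 promoter had more CpG dinucleotides than 98.4% of the promoters in the table.

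The targeted genes matched the labels in every library. In CPM (counts scaled to the library total, here adjusted by the trimmed mean of M values, TMM), Mttp was at 110 ± 61.5 in control, at 7.39 ± 2.07 in MttpLKO and at 4.52 ± 1.28 in DKO (SD, n = 3), and Fabp1 at 6381 ± 412, 4120 ± 810 and 65.3 ± 14.0. Library totals were 24995426 to 27080442 counts in control, 26362408 to 27918197 in MttpLKO and 23268389 to 23429588 in DKO, so the DKO pools were the shallowest. Hepatocyte markers (10 of 10 found) summed to 89923 to 102544 CPM for the control pools, 97012 to 106790 for MttpLKO and 66766 to 98463 for DKO. The lowest of these sums was that of DKO pool 1, against 84064 CPM in DKO pool 2 and 98463 in DKO pool 3. MttpLKO pool 3 stood apart from the other 8 libraries in markers of other cells: its B and plasma cell markers (10 of 10 found) summed to 910 CPM against 205 to 376, its T and NK cell markers (10 of 10) to 16.5 against 2.87 to 6.77, its stellate cell and matrix markers (10 of 10) to 442 against 210 to 297, and its proliferation genes (10 of 10) to 30.9 against 7.33 to 16.2. Bile duct markers (10 of 10) summed to 88.0 to 97.2 CPM in control, against 110 to 163 in MttpLKO and 98.7 to 130 in DKO, and stellate cell and matrix markers to 210 to 235, 241 to 442 and 241 to 297. For both lists all 6 deleted pools thus lay above all 3 controls, as for the 5 higher genes. Proliferation genes summed to 8.32 to 9.52 CPM in control, 7.33 to 30.9 in MttpLKO and 10.6 to 16.2 in DKO. All DKO pools, but not all MttpLKO pools, thus lay above the controls for that list. Macrophage, sinusoidal endothelial and adipocyte markers overlapped between the 3 genotypes; of the adipocyte markers, Lep was at 0 in all libraries. The part of these cells in the results below was not tested, and MttpLKO means are given with and without pool 3.

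All 6 members had every one of the 6 Mttp-deleted libraries outside the range of the 3 controls, 5 above it and 1 below. The members were chosen for this, and 4.5% of the genes tested did the same, 2.23% above and 2.27% below the control. The plot of levels by library shows the 6 patterns.

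**Figure D1:**
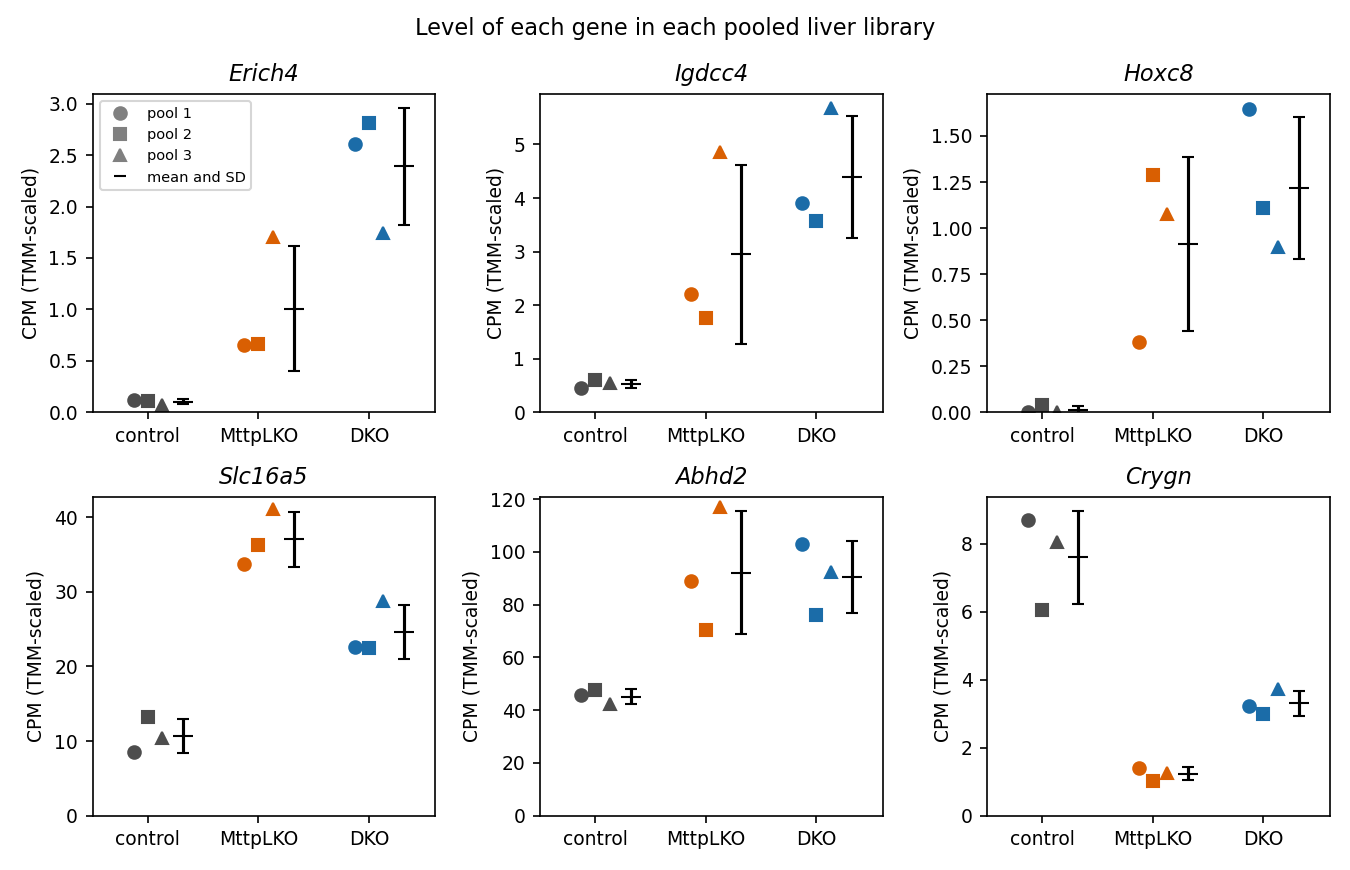
Level of each gene in each pooled library (y axis, TMM-scaled CPM, linear from 0; symbols for pools 1 to 3, bar for the mean and SD of 3 pools). Erich4, Igdcc4 and Hoxc8 are near 0 in control, Abhd2 is at a like level in MttpLKO and DKO, and Slc16a5 and Crygn have their highest and lowest values in MttpLKO, with DKO between MttpLKO and control.

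Igdcc4, the fetal liver surface marker, was low in control and several-fold higher in both deleted genotypes. The control pools held 11, 16 and 15 counts, or 0.445, 0.602 and 0.542 CPM. The MttpLKO pools read 2.22, 1.76 and 4.86 CPM, and the DKO pools 3.90, 3.58 and 5.69 CPM. MttpLKO pool 3, the pool rich in B cell, matrix and proliferation transcripts, was the high one of its genotype and fell inside the DKO range. The means were 0.530 ± 0.0794 CPM in control, against 2.95 ± 1.67 in MttpLKO and 4.39 ± 1.14 in DKO (SD, n = 3). Igdcc4 was thus 5.56-fold above control in MttpLKO, 3.76-fold without pool 3, and 8.28-fold above it in DKO.

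Hoxc8, the homeobox factor, was the nearest to a gene off in one genotype and on in the others. A single count was seen in control, in pool 2, while the MttpLKO pools held 10, 35 and 29 counts and the DKO pools 41, 26 and 20. In CPM these were 0, 0.0376 and 0 in control, 0.382, 1.29 and 1.07 in MttpLKO, and 1.65, 1.11 and 0.896 in DKO. Every deleted pool lay above every control, although the level remained near 1 CPM. Corrected for library size, the summed counts were 72.7 times those of control in MttpLKO (95% exact counting interval 12.7 to 2910) and 97.2 times in DKO (17.0 to 3882). These wide intervals cover counting error only and come from the 1 control count. Pool 3 was not the highest MttpLKO pool for Hoxc8.

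Erich4 showed the same near-absence in control with a larger step in DKO. The counts were 3, 3 and 2 in control, 17, 18 and 46 in MttpLKO, and 65, 66 and 39 in DKO. They correspond to 0.121, 0.113 and 0.0723 CPM in control, against 0.649, 0.662 and 1.71 in MttpLKO and 2.61, 2.81 and 1.75 in DKO. No DKO pool overlapped an MttpLKO pool, but the margin between MttpLKO pool 3 and DKO pool 3 was narrow. Mean levels were 0.102 ± 0.0262, 1.01 ± 0.606 and 2.39 ± 0.565 CPM (SD, n = 3), which is 9.84-fold above control in MttpLKO, 6.42-fold without pool 3, and 23.4-fold in DKO. Summed counts of 8, 81 and 170 give 95% counting intervals of 4.82 to 23.8 for the MttpLKO ratio and 11.8 to 55.9 for the DKO ratio. Such intervals cover counting error only, leave out the spread between pools and are no test of the differences from control.

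Slc16a5, the MCT6 carrier, was expressed in all 3 genotypes and was highest in MttpLKO. It read 8.53, 13.2 and 10.3 CPM in the control pools, 33.8, 36.2 and 41.1 in MttpLKO, and 22.6, 22.5 and 28.7 in DKO. The 3 genotypes formed 3 separate ranges, with DKO between the others. Mean levels were 10.7 ± 2.34, 37.0 ± 3.71 and 24.6 ± 3.57 CPM (SD, n = 3), a ratio to control of 3.47 in MttpLKO, 3.28 without pool 3, and 2.30 in DKO. Gm11695, an antisense gene that overlaps Slc16a5, had 38, 115 and 81 counts in control, MttpLKO and DKO against 847, 2978 and 1731 for Slc16a5. The strand setting of the counting is not given in the sources used here, so reads of this pair cannot be told apart.

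Abhd2, the lipase, was the most abundant of the 6 in CPM and lay about 2-fold above control in both deleted genotypes. The control pools lay close together at 45.6, 47.7 and 42.1 CPM. MttpLKO pools read 88.9, 70.5 and 117 CPM and DKO pools 103, 76.0 and 92.4 CPM. Pool 3 was again the highest of MttpLKO, and the MttpLKO and DKO ranges overlapped almost entirely. The means were 45.1 ± 2.81, 92.1 ± 23.4 and 90.5 ± 13.6 CPM (SD, n = 3), which put MttpLKO at 2.04-fold of control, 1.77-fold without pool 3, and DKO at 2.00-fold.

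Crygn, the crystallin gene, was the 1 member lower in the deleted livers. It read 8.69, 6.06 and 8.07 CPM in the control pools, 1.41, 1.03 and 1.26 in those of MttpLKO, and 3.22, 2.98 and 3.72 in DKO. Here too the genotypes formed 3 separate ranges, and DKO again lay between MttpLKO and control. Mean levels of 7.60 ± 1.38, 1.23 ± 0.193 and 3.30 ± 0.377 CPM (SD, n = 3) put control 6.16-fold above MttpLKO and 2.30-fold above DKO. Leaving pool 3 out left the MttpLKO mean at 1.22 CPM.

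The spread between pools differed from gene to gene. In MttpLKO the SD was 60.3% of the mean for Erich4 and 56.7% for Igdcc4, but 10.0% for Slc16a5 and 15.7% for Crygn. In DKO the same figures were 23.6%, 26.0%, 14.5% and 11.4%. Pool 3 was the highest MttpLKO pool for 4 of the 6 genes, 2.60 times the mean of the other MttpLKO pools for Erich4, 2.44 times for Igdcc4, 1.47 times for Abhd2 and 1.17 times for Slc16a5.

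Between genes, levels are compared in the deposited RPKM (CPM divided by the length of the gene in kb), since the summed exons run from 802 bases in Crygn to 10571 in Abhd2. Per length, Crygn was the highest of the 6 in control, at a mean of 9.51 RPKM (range of the 3 pools 7.54 to 10.7), above Abhd2 at 4.28 (4.07 to 4.51) and Slc16a5 at 2.90 (2.28 to 3.56). Far below these came Erich4 at 0.112 RPKM (0.0812 to 0.132) and Igdcc4 at 0.0835 (0.0691 to 0.0945), whose ranges overlapped, and Hoxc8 at 0.00442 (0 to 0.0133). The order was another in the deleted livers. In MttpLKO, Slc16a5 at 9.90 RPKM (8.80 to 11.4) and Abhd2 at 8.65 (6.50 to 11.3) led with overlapping ranges. Crygn at 1.52 RPKM (1.25 to 1.70), Erich4 at 1.10 (0.688 to 1.92), Igdcc4 at 0.462 (0.270 to 0.781) and Hoxc8 at 0.320 (0.130 to 0.443) followed, each range overlapping the next. In DKO the order was Abhd2 at 8.66 RPKM (7.21 to 10.4), Slc16a5 at 6.68 (6.09 to 7.45), Crygn at 4.15 (3.73 to 4.45), Erich4 at 2.66 (1.84 to 3.10), Igdcc4 at 0.691 (0.563 to 0.857) and Hoxc8 at 0.438 (0.304 to 0.619). Of the neighbours in the DKO order, Abhd2 and Slc16a5 overlapped, and so did Igdcc4 and Hoxc8.

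**Figure D2:**
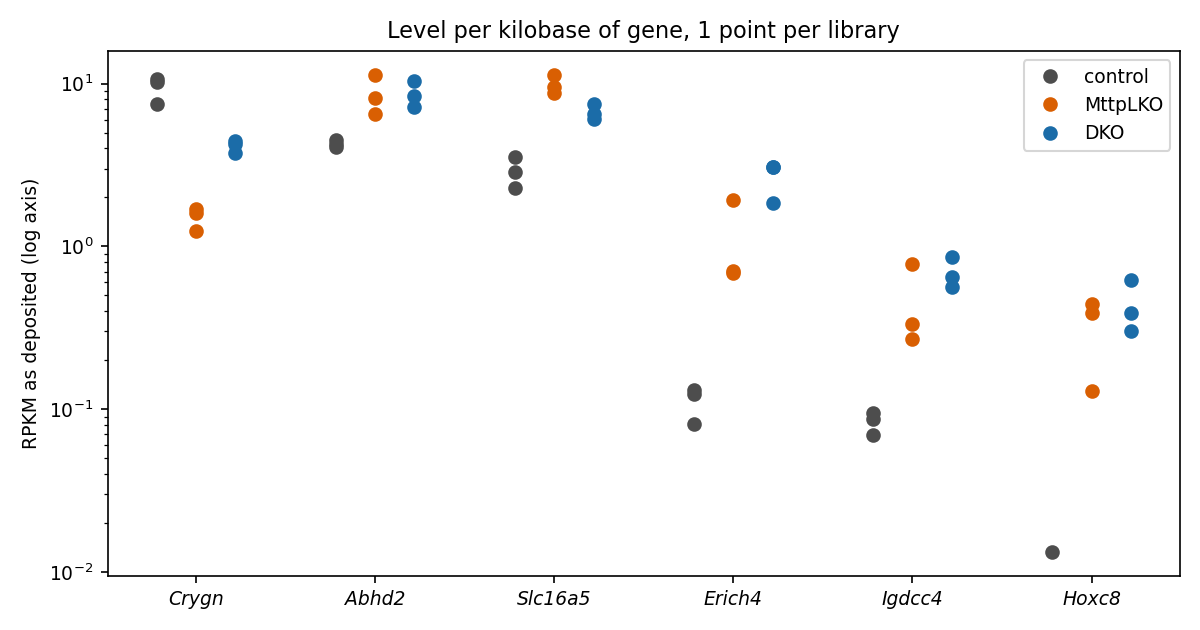
Deposited RPKM of the 6 genes (y axis, log scale), 1 point per library, by genotype. Crygn leads in control and lies below Abhd2 and Slc16a5 in MttpLKO and DKO; the 2 control libraries in which Hoxc8 was at 0 cannot be drawn on the log axis.

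DKO was compared with MttpLKO, since both lack hepatic Mttp and DKO also carries the germline deletion of Fabp1. Without a Fabp1 single knockout, the loss of Fabp1 and any other difference between these genotypes cannot be told apart. The choice of the 6 genes did not use the difference between DKO and MttpLKO. It did use the same MttpLKO and DKO pools, so the results for the 6 genes are not fully free of that choice. Of the 6, Crygn alone passed edgeR's quasi-likelihood test; 0.4% of all genes tested passed it in this comparison, 0.258% as higher and 0.142% as lower in DKO. Crygn was 2.67-fold higher in DKO than in MttpLKO (95% interval 1.91 to 3.74, log2 fold change 1.42 ± 0.22 SE, edgeR adjusted p = 0.0208). With limma-voom the adjusted p was 0.065, with only the 6 libraries compared 0.100, and without MttpLKO pool 2, DKO pool 1 or DKO pool 3 it was 0.113, 0.0662 and 0.0603; the log2 fold change stayed between 1.32 and 1.54 in every setting.

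Both other genes whose DKO and MttpLKO libraries did not overlap missed the threshold. Without overlap were 3 of the 6 genes, against 11.5% of all genes tested. Erich4 was 2.37-fold higher in DKO (95% interval 1.31 to 4.30, log2 fold change 1.25 ± 0.39 SE, edgeR adjusted p = 0.327). Without MttpLKO pool 3 the log2 fold change was 1.86 and passed (edgeR adjusted p = 0.0394). Slc16a5 was 1.51-fold lower in DKO (95% interval 1.17 to 1.93, log2 fold change −0.59 ± 0.16 SE, edgeR adjusted p = 0.246).

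For the remaining 3 genes the libraries of the deleted genotypes overlapped. Igdcc4 differed by a log2 fold change of 0.57 ± 0.35 SE (fold interval 0.869 to 2.55, edgeR adjusted p = 0.676) and Hoxc8 by 0.41 ± 0.46 SE (0.660 to 2.68, edgeR adjusted p = 0.834). Abhd2 differed by −0.03 ± 0.17 SE (0.754 to 1.28, edgeR adjusted p = 0.982), and its sign turned without MttpLKO pool 3 (0.19) or DKO pool 2 (0.10). The Abhd2 interval reaches from 1.33-fold lower to 1.28-fold higher in DKO, and the wider ones of Igdcc4 and Hoxc8 reach 2.55-fold and 2.68-fold higher.

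**Figure D3:**
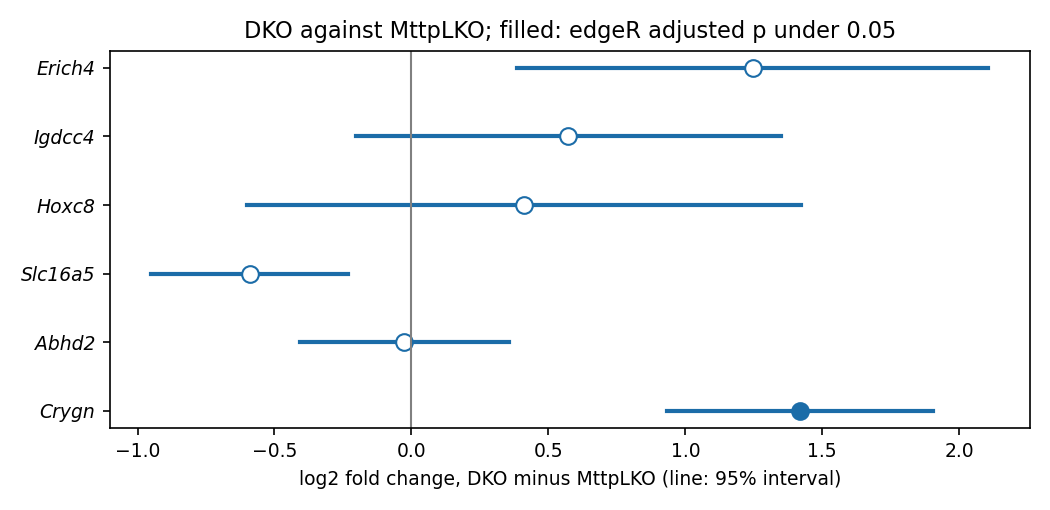
Log2 fold change of DKO against MttpLKO for each gene (x axis; points, estimates of the edgeR fit; lines, 95% intervals; filled point, adjusted p under 0.05). Crygn at 1.42 is the 1 filled point; the intervals of Erich4 and Slc16a5 also leave out 0 before adjustment for all genes tested.

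No relative of the 6 genes in the lists examined was called by edgeR among the genes that passed the filter on low counts. Lists of 7 families or pathways held 147 genes other than the members, of which 144 were in the tables and 79 were tested: Hox genes and their cofactors, DCC-type receptors and netrins, monocarboxylate transporters, alpha/beta hydrolase domain genes, endocannabinoid and monoacylglycerol enzymes, crystallins and glutamate-rich genes. By edgeR 0 of the 79 were called in MttpLKO against control, in DKO against control or in DKO against MttpLKO, where 0.346%, 0.332% and 0.4% of all genes tested were called. At shares this low, 0 calls among 79 genes is near the rate over all genes and no result about the families. Unadjusted edgeR p-values fell under 0.05 for 11, 5 and 6 of the 79, beside 6.97%, 11.2% and 9.1% of all genes tested. As a share this was above all genes in MttpLKO against control and below them in the other comparisons. DESeq2 called 1, 1 and 2, all higher, beside 1.12%, 1.73% and 1.45% of all genes. With no filter on low counts edgeR also called 1, 1 and 2. The median log2 fold changes were 0.02, 0.08 and −0.01, beside 0.01, −0.002 and −0.02 over all genes tested.

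Among the Hox genes, 15 of 46 were tested and 0 called. In the Hoxc cluster itself no other gene had enough counts to be tested: Hoxc6 had 12, 6 and 4 counts in control, MttpLKO and DKO, Hoxc4 had 0, 4 and 4, and Hoxc5 had 3, 4 and 0. Hoxc9 and Hoxc11 had 1 count each over the 9 libraries, and Hoxc10, Hoxc12, Hoxc13 and the antisense RNA Hotair had 0. Hoxc8 lies inside the annotated span of Hoxc5, whose 7 counts in all are few beside the 74 of Hoxc8 in MttpLKO and the 87 in DKO.

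Of the DCC-type receptors and netrins 10 of 17 were tested, and Igdcc3, the closest relative of Igdcc4 in the list, had 3 counts over all libraries. Unc5b, a netrin receptor, had a log2 fold change of 0.87 ± 0.23 SE in MttpLKO against control (edgeR adjusted p = 0.246, or 0.0442 with no low-count filter; DESeq2 adjusted p = 0.0354). The MttpLKO pools read 9.51, 10.0 and 15.7 CPM of Unc5b. Without MttpLKO pool 3, the highest, its log2 fold change was 0.59 (edgeR adjusted p = 0.463). Of the monocarboxylate transporters 13 of 17 were tested. Slc16a13, a transporter of the same family as MCT6, had the smallest p of that list, in DKO against MttpLKO, with a log2 fold change of 1.41 ± 0.42 SE (edgeR adjusted p = 0.291, or 0.041 with no low-count filter; DESeq2 adjusted p = 0.0404), opposite in sign to Slc16a5.

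Alpha/beta hydrolase domain genes, 17 of 20 tested, had log2 fold changes against control of −0.28 to 0.40 for MttpLKO and −0.20 to 0.28 for DKO. Abhd2 itself had 1.03 and 1.00. Among the enzymes that make or cleave 2-arachidonoylglycerol and related lipids, 13 of 16 were tested. Mgll, the main monoacylglycerol lipase of liver, was at 390 ± 22.3 CPM in control, against 289 ± 43.2 in MttpLKO and 454 ± 27.9 in DKO (SD, n = 3). Its log2 fold change in DKO against MttpLKO was 0.65 ± 0.13 SE (edgeR adjusted p = 0.0766, or 0.0201 with no low-count filter; DESeq2 adjusted p = 0.000222). Other crystallin genes, 9 of 22 tested, had values of −0.87 to 0.54 for MttpLKO and −0.42 to 0.21 for DKO. Crygn had −2.62 and −1.20. Both it and Abhd2 were picked for their differences from control, so smaller values in relatives are no result about the families. Of the 6 glutamate-rich genes 2 were tested and neither was called.

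Since Igdcc4 is known from fetal liver and liver tumours, a list of 28 genes of fetal liver and liver tumours was examined beside it; 25 were tested. This list was chosen with earlier results of these libraries known. By edgeR 1 gene was called, as higher, in MttpLKO against control (of all genes tested, 0.224% were called higher and 0.122% lower) and 2, both higher, in DKO against control (0.237% and 0.095%). In DKO against MttpLKO edgeR called 0 of the 25. Before adjustment 15, 11 and 7 of the 25 were under 0.05 in the 3 comparisons, beside the 6.97%, 11.2% and 9.1% of all genes given above. DESeq2 called 7 higher and 1 lower in MttpLKO against control, 6 higher in DKO against control, and 2 lower in DKO against MttpLKO. Positive log2 fold changes were found for 21 of the 25 in each deleted genotype. The medians of the 25 were 0.68 in MttpLKO and 0.52 in DKO, beside 0.01 and −0.002 over all genes tested. Because of how the list was chosen, these counts and medians are a description and give no support to a pattern shared with Igdcc4. The same holds for the values and calls of Akr1c18 and Gpc3, named because they had the smallest adjusted p of the list. Akr1c18, a hydroxysteroid dehydrogenase gene, stood at 1.09 ± 0.414, 13.8 ± 13.6 and 26.1 ± 2.92 CPM in control, MttpLKO and DKO (SD, n = 3), with a log2 fold change of 4.57 ± 0.66 SE in DKO (edgeR adjusted p = 0.0153). Gpc3, the glypican used as a marker of hepatocellular carcinoma, stood at 2.82 ± 0.578, 7.96 ± 4.14 and 10.6 ± 1.32 CPM, with a log2 fold change of 1.91 ± 0.33 SE in DKO (edgeR adjusted p = 0.0423). As for Igdcc4, MttpLKO pool 3 was the highest MttpLKO pool for both, at 29.4 CPM of Akr1c18 against 4.24 and 7.72, and 12.5 CPM of Gpc3 against 4.47 and 6.87. Both DKO calls were lost with limma-voom (adjusted p = 0.0701 for Akr1c18 and 0.0702 for Gpc3), and that of Gpc3 also with upper-quartile scaling (edgeR adjusted p = 0.0526) and a minimum count of 30 (0.0516). Both were lost with some libraries left out: Akr1c18 without any 1 control or DKO pool 3 (edgeR adjusted p = 0.0532 to 0.109), and Gpc3 without any 1 control, any 1 DKO pool or MttpLKO pool 2 (edgeR adjusted p = 0.0559 to 0.196).

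The chromosomal neighbours of the 6 genes were examined within 500 kb on either side. Of 234 such genes 136 were tested, and 2 were called in any comparison, both near Crygn and both in MttpLKO against control, where 0.346% of all genes tested were called. The nearest tested gene on each side of each member, 12 in all, gave 0 calls in the 3 comparisons, with log2 fold changes of −0.94 to 1.50 for MttpLKO and −0.72 to 1.79 for DKO, each against control (smallest edgeR adjusted p 0.235 and 0.103). The highest of these values belonged to Wdr86, the nearest tested gene to Crygn, and were thus opposite in sign to those of Crygn. Dmac2, 3.52 kb from Erich4, had log2 fold changes of −0.02 in MttpLKO and −0.28 in DKO, and Dpp8, 18.8 kb from Igdcc4, had 0.05 and −0.04. Armc7, 1.27 kb from Slc16a5, had 0.18 and −0.17. Genes that overlap a member were not among these 12. Gm11695, the tested antisense gene that overlaps Slc16a5, had 1.57 in MttpLKO and 1.25 in DKO (edgeR adjusted p = 0.402 and 0.382). Both values had the sign of those of Slc16a5, and the reads of this pair cannot be told apart.

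The called neighbours of Crygn went in opposite directions. Asic3, an acid-sensing ion channel gene (chromosome 5, 24413451 to 24417834), read 1.05, 1.32 and 0.723 CPM in control, 0, 0.147 and 0.0371 in MttpLKO, and 0.0402, 0.0852 and 0.224 in DKO. All 6 deleted pools lay below the controls, as for Crygn, with a log2 fold change of −3.95 ± 0.70 SE in MttpLKO (edgeR adjusted p = 0.0444) and −3.12 ± 0.65 SE in DKO (edgeR adjusted p = 0.095). This rests on 81, 5 and 8 counts per genotype, and the MttpLKO call was lost when any 1 library other than DKO pool 3 was left out (edgeR adjusted p = 0.0588 to 0.216). Galnt11, a glycosyltransferase gene that starts mucin-type O-glycans (chromosome 5, 25222882 to 25265918), read 10.6, 9.89 and 10.7 CPM in control, 20.1, 21.3 and 18.9 in MttpLKO, and 16.8, 14.7 and 19.8 in DKO. It rose by 0.95 ± 0.13 SE on the log2 scale in MttpLKO (edgeR adjusted p = 0.013) and had a log2 fold change of 0.71 ± 0.13 SE in DKO (edgeR adjusted p = 0.051). The MttpLKO call was lost without any 1 control or MttpLKO pool 2 (edgeR adjusted p = 0.0508 to 0.0946).

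**Figure D4:**
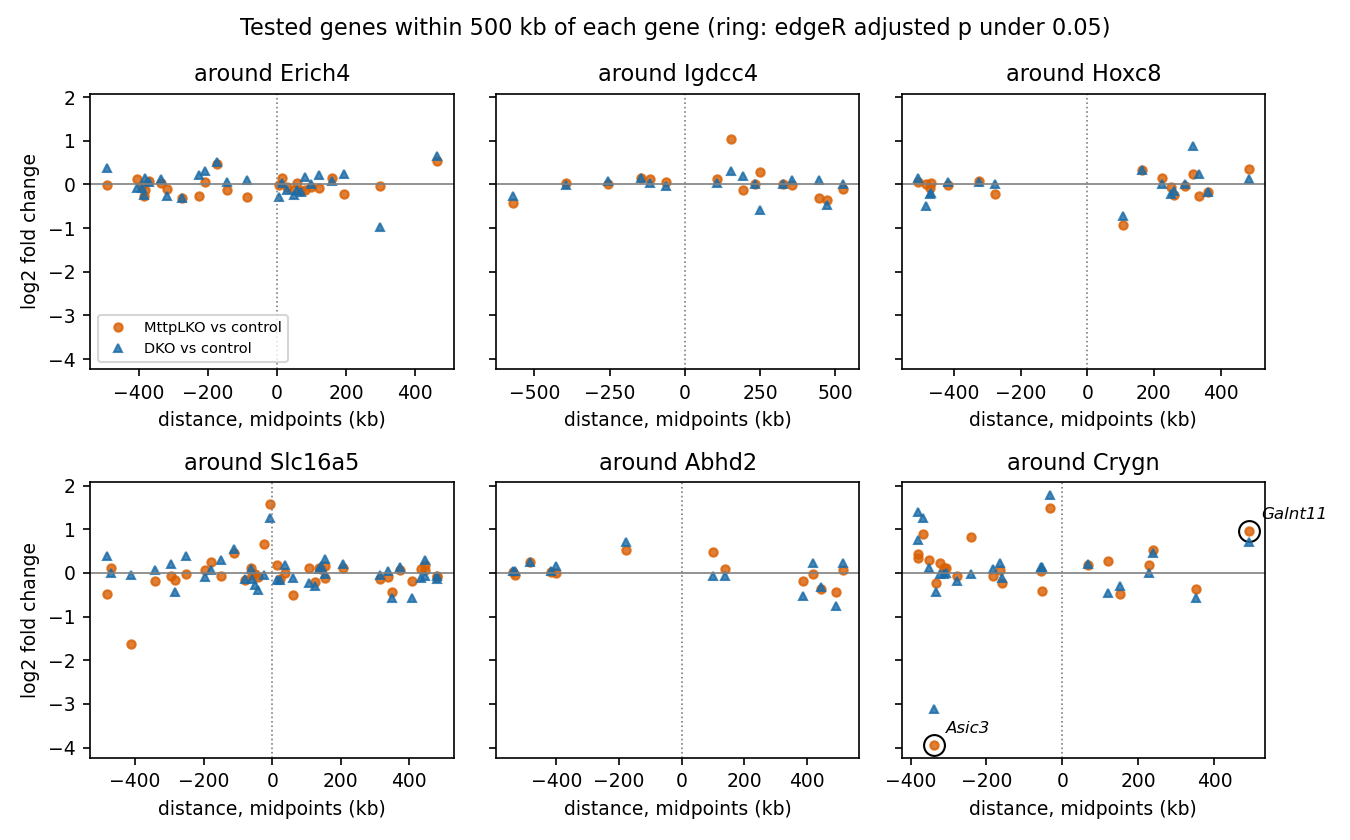
Log2 fold change against control (y axis) of every tested gene within 500 kb of each of the 6 genes, by distance between midpoints in kb (x axis); circles are MttpLKO, triangles DKO, and a ring marks an edgeR adjusted p under 0.05. Asic3 at −3.95 and Galnt11 at 0.95, both around Crygn, carry the 2 rings; the point nearest to Slc16a5 is the overlapping antisense gene Gm11695.

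For each of the 6 genes, the 3 tested genes of most like profile over the 9 libraries were found by the smallest root mean square difference in log2 CPM, each gene centred on its own mean. These were chosen for likeness, so their values are a description. Abhd2 had the closest match, A230056P14Rik at 0.143, then Cdca2, a cell division gene, at 0.196 and the septin gene Sept11 at 0.203. Slc16a5 was followed most closely by Abcd2, which encodes a peroxisomal transporter of fatty acyl-CoA, at 0.268. Abcd2 read 3.23, 7.34 and 6.22 CPM in control, 16.4, 13.8 and 17.9 in MttpLKO, and 8.88, 10.9 and 9.41 in DKO, so that DKO again lay between the others. Magohb at 0.336 and Dlx4 at 0.346 came next.

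Igdcc4 was matched by 5330417C22Rik at 0.357, Ipcef1 at 0.421 and Cyp2a4 at 0.434. Cyp2a4, a cytochrome P450 gene known for higher expression in female than male mouse liver, read 13.5, 48.9 and 34.1 CPM in control, 83.5, 71.2 and 208 in MttpLKO, and 109, 146 and 194 in DKO. As for Igdcc4, pool 3 was the high MttpLKO pool. Cyp2a4 has close paralogs, so reads may have been split between copies.

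Matches to Erich4 were looser: the kinesin gene Kif5c at 0.481, Miox at 0.587 and the carboxypeptidase gene Cpe at 0.588. Kif5c read 0.162, 0.226 and 0.181 CPM in control, 0.649, 0.919 and 2.63 in MttpLKO, and 4.38, 2.51 and 5.42 in DKO. Miox, which encodes the inositol oxygenase best known from kidney, also came first for Hoxc8, at 0.646, followed by Gm23616 at 0.662 and the calcium channel gene Cacna1b at 0.742. Miox read 0.121, 0.263 and 0.543 CPM in control, 0.840, 1.76 and 3.34 in MttpLKO, and 3.94, 3.24 and 3.09 in DKO. Gm23616 had 0 counts in all 3 controls against 36 in MttpLKO and 29 in DKO.

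Crygn was most like Mug2, a murinoglobulin gene that encodes a plasma protease inhibitor, at 0.490, then Palm3 at 0.559 and Gm11773 at 0.587. Mug2 read 191, 216 and 227 CPM in control, 44.2, 24.2 and 22.3 in MttpLKO, and 125, 171 and 131 in DKO. Like Crygn it was lowest in MttpLKO with DKO in between, but it lay closer to control in DKO than Crygn did. Of these 18 pairings 14 were found again with a prior count of 0.5 in place of 2.

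**Figure D5:**
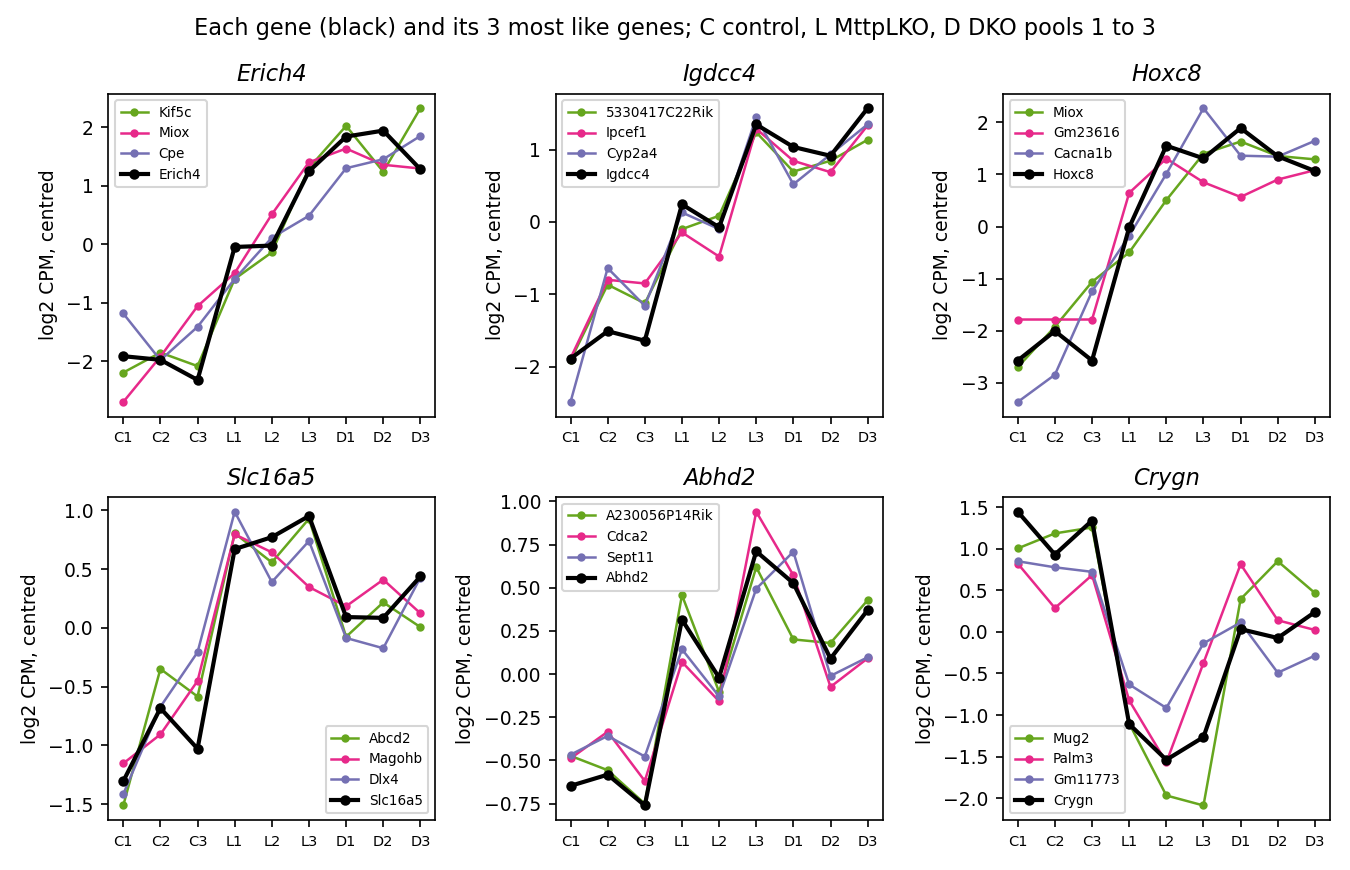
Log2 CPM centred on each gene's mean (y axis) over the 9 libraries (x axis; C control, L MttpLKO, D DKO) for each of the 6 genes, in black, and its 3 most like genes, in colour. The lines for Abhd2 lie closest together (0.143 to 0.203) and those for Hoxc8 farthest apart (0.646 to 0.742).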

How the data were processed

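RNA reads were counted per gene in 9 libraries, each a pool of RNA from 3 mice, and deposited, per the file headers, as raw whole-number counts of 41388 genes. CPM and RPKM deposited by the authors stand beside them, and values recomputed from the counts came within 5.1e-11 CPM and 7.5e-11 RPKM; deposited RPKM served to compare levels between genes and was not tested. The submitters' processing notes list STAR 2.0.4b, Subread and, for featureCounts, version 1.4.5. The genome build, the strand setting and what was done with reads shared between genes were, for these counts, not given in the sources used here. Symbols were found for 97.26% of the identifiers. Of the identifiers present in GENCODE M21 (GRCm38), 82.04% start where it puts them.

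The low-count filter (filterByExpr, minimum count 10, edgeR 4.0.16 under R 4.3.3) left 14741 genes, and libraries were scaled by TMM. Genotypes were compared by the quasi-likelihood F test of edgeR in 1 fit of 3 genotype means over 9 libraries, with Benjamini-Hochberg adjustment over all genes tested and a threshold of 0.05. Standard errors are the log2 fold change divided by the square root of F. The biological coefficient of variation was 18.3%. Libraries of 1 genotype differed by more than counting noise (chi-square of 20.8 to 67.5 per degree of freedom). The fit was tested first on simulated counts with 200 genes changed. Likeness of profile used log2 CPM with a prior count of 2.

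The members and the lists were chosen with earlier results of these data known. Named beside the members were Mttp and Fabp1, genes of each list with the smallest adjusted p, called genes within 500 kb of a member, the nearest tested gene on each side, and the 3 genes of most like profile. Igdcc3, Gm11695 and the Hoxc genes were named as relatives or overlapping genes after their counts were seen. Alternatives were RLE and upper-quartile scaling, no low-count filter, a minimum count of 30, DESeq2 1.42.0, limma-voom 3.58.1, a replicate block, the 6 compared libraries alone, and each library left out in turn.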

Additional observations from a re-analysis of the deposited data

How the results depend on the processing

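The number of genes called moved with the tool, the filter and single libraries. For MttpLKO against control the 51 genes called became 171 with no low-count filter and 165 with DESeq2, for DKO against control the 49 became 201 and 255, and for DKO against MttpLKO the 59 became 180 and 214. With only the 6 libraries compared, DKO against control had 78 and DKO against MttpLKO 34. With 1 library left out, the counts ran from 14 to 54, from 15 to 100 and from 22 to 73. They moved by over 1.5 times without control pool 1 (25 and 23), pool 2 (14 and 15) or pool 3 (14 and 15) in the comparisons with control. MttpLKO against control had 19 without MttpLKO pool 2 and 29 without DKO pool 2; DKO against control had 100 without MttpLKO pool 3, 28 without DKO pool 1 and 20 without DKO pool 3; DKO against MttpLKO had 22 without MttpLKO pool 2 and 37 without DKO pool 2. The cause was not tested, beyond the smaller number of libraries. Genes with all 6 deleted libraries on 1 side of the controls numbered 663, against 639 with deposited CPM and 813 with no low-count filter. With 1 library left out, an alternative chosen after seeing the data, they ran from 796 to 1609 (1609, 1107 and 1049 without control pools 1, 2 and 3, 1012 without MttpLKO pool 3 and 1157 without DKO pool 2). Fewer libraries make this condition easier to meet, so a rise shows nothing on stability.

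For the 6 members in DKO against MttpLKO, the direction held in every setting except for Abhd2, whose log2 fold change ran from −0.17 to 0.19 with 1 library left out (0.19 without MttpLKO pool 3 and 0.10 without DKO pool 2). Crygn was called in 6 of 9 fits with 1 library left out and in 6 of 8 other settings; besides it, Erich4 was called without MttpLKO pool 3 alone. The differences of members from control were recomputed as well; their direction follows from how the members were chosen and shows nothing on stability. Of these values, that of Igdcc4 in MttpLKO moved beyond its error, to 1.89 from 2.46 without pool 3. The Hoxc8 ratio has no value without control pool 2, which holds the 1 control count, and Hoxc8 is not tested at a minimum count of 30. The family lists, with 0 calls by edgeR in each comparison, had 1, 1 and 2 by edgeR with no low-count filter and 1, 1 and 2 by DESeq2.

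The pools share replicate numbers in their titles, but the deviations of 9 same-numbered pairs correlated at −0.244 to 0.0721, so the numbers were not taken to pair the pools. With a replicate block, 35, 40 and 43 genes were called, of which 30, 34 and 40 were among the 51, 49 and 59; of the neighbours and fetal liver genes with a printed call, Asic3 (adjusted p = 0.0873) and Gpc3 (0.0551) lost their calls. Depth limits Hoxc8 and Erich4 most: 1 and 8 counts in 3 control libraries bound their ratios only loosely.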
